A study of Mus musculus with 12 samples.

Results

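The cytochrome P450 enzymes of families 1, 2 and 3, the families that oxidise most drugs and other foreign compounds in liver, were examined in RNA-seq of mouse liver. All genes whose symbol reads Cyp1, Cyp2 or Cyp3 followed by a subfamily letter and a number were taken, which gave 58 of the 53665 genes in 16 subfamilies. Levels are in FPKM, the fragments assigned to a gene scaled to transcript length and library size, so that levels of different genes can be set side by side. Of the 58 genes, 42 reached 1 FPKM in at least 3 libraries and were tested. The other 16 stayed at or below 0.785 FPKM, and 3 of these (Cyp2c66, Cyp2j12 and Cyp2w1) were listed at 0 in every library. The highest of the 16 were Cyp2s1, with 0.0830 to 0.379 FPKM in RIPK1_D138N, 0.121 to 0.267 FPKM in TNFR12_KO, 0.334 to 0.785 FPKM in WT and 0.0329 to 0.130 FPKM in Sham, and Cyp2d11, with at most 0.606 FPKM.

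The 12 libraries form 4 groups of 3, made from total RNA of whole liver tissue. RIPK1_D138N livers carried the D138N mutation of RIPK1, a kinase downstream of TNF receptors, and this mutation is known to remove the kinase activity. TNFR12_KO livers came from mice labelled as TNFR1/2 knockouts, TNFR1 and TNFR2 being the receptors of the cytokine TNF. WT and Sham livers were both of wild-type genotype. Only Sham carries a sham label, and the other 3 groups were taken as the arm with ischemia, an interruption of blood supply, from the title and design text of the series. Strain, sex, age, the time from operation to collection and whether the libraries of a group came from separate animals are not given in the sources used here, so p-values measure only the spread between these samples. Neither mutant has sham libraries here, so what it differed in before the operation cannot be told apart from how it responded.

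P450 enzymes sit in the endoplasmic reticulum, carry a heme group and take electrons from P450 oxidoreductase and cytochrome b5 to insert oxygen into their substrates. In liver they are made mainly by hepatocytes, and many are induced through ligand-activated receptors: AHR acts on Cyp1a genes, CAR (Nr1i3) on Cyp2b genes and PXR (Nr1i2) on Cyp3a genes. In mice, many members of the Cyp2a, Cyp2b, Cyp2c, Cyp2d and Cyp3a subfamilies are known to differ between the sexes under the control of growth hormone, and these subfamilies consist of young gene copies that resemble each other closely.

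The libraries were not alike in 2 respects that touch every result. The FPKM of all genes summed to 489292 to 518521 in RIPK1_D138N, 441239 to 512871 in TNFR12_KO, 288886 to 303478 in WT and 649315 to 750430 in Sham, while 10127 to 10644 genes reached 1 FPKM in each library. In addition, RIPK1_D138N replicate 0 stood apart from replicates 1 and 2. Xist, the RNA of the inactive X chromosome, measured 0.0215 FPKM in replicate 0, 20.1 FPKM in replicate 1 and 23.4 FPKM in replicate 2, and was at most 0.0824 FPKM in the libraries of the other 3 groups. The Y-linked gene Ddx3y measured 21.0 FPKM in replicate 0, 0.0176 FPKM in replicate 1 and 0 FPKM in replicate 2, and was at least 11.97 FPKM elsewhere. Replicates 1 and 2 thus had the high Xist and absent Ddx3y known of female mice, and replicate 0, TNFR12_KO, WT and Sham libraries the reverse. For most of the P450 genes named for a split between the 2 kinds of library, RIPK1_D138N values with replicate 0 alone and with replicates 1 and 2 alone are given beside those of all 3.

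The 58 genes together took 1.93, 2.48 and 2.53% of all FPKM in RIPK1_D138N replicates 0, 1 and 2, 1.96, 1.67 and 1.84% in TNFR12_KO, 0.91, 1.25 and 0.815% in WT and 1.53, 2.11 and 1.78% in Sham. Their summed level was 10000, 12158 and 12703 FPKM in RIPK1_D138N, 8134 to 9974 FPKM in TNFR12_KO, 2353 to 3783 FPKM in WT and 11033 to 13694 FPKM in Sham. All 3 WT libraries lay below all other libraries, both in summed level and in share. Cyp2e1 alone made up 30.1% of the summed level over all libraries. As this is RNA of whole tissue, fewer hepatocytes and less P450 RNA per hepatocyte cannot be told apart.

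In WT against Sham, 0 tested members rose and 31 of 42 fell in limma's moderated test on log2(FPKM + 1), with adjustment over 11718 genes and a call at adjusted p under 0.05. Without adjustment, 0 were higher and 33 lower at p under 0.05. The background was high: 16.4% of all tested genes rose and 41.9% fell in the same comparison. The median log2 fold change was -1.78 over the 42 members and -0.36 over all tested genes. The falls covered 1 of 2 tested genes in Cyp1a, 3 of 4 in Cyp2a, 1 of 3 in Cyp2b, 10 of 13 in Cyp2c, 5 of 6 in Cyp2d, 2 of 3 in Cyp2j and 5 of 6 in Cyp3a. Of the subfamilies with 1 tested gene, Cyp2e1, Cyp2f2, Cyp2r1 and Cyp2u1 fell, whereas Cyp2g1 had a log2 fold change of 0.17 (adjusted p = 0.654, limma).

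Against WT, the picture in both mutants was the reverse in direction. In RIPK1_D138N 37 members rose and 0 fell, with a median log2 fold change of 1.83 against 0.11 over all tested genes. The background of that comparison was 29.8% higher and 21.9% lower, and without adjustment limma gave 37 higher and 1 lower. In TNFR12_KO 34 members rose and 0 fell, also without adjustment, with a median of 1.54 against 0.14 over all tested genes and a background of 29.6% higher and 17.5% lower. Both comparisons share the WT libraries with each other and with WT against Sham, so the 3 counts are not independent. Cyp2b9 in RIPK1_D138N and Cyp2g1 in both mutants are counted among the rises but passed the filter only through mutant libraries. In either mutant the libraries of each called gene did not overlap with WT, and in WT against Sham this held for 30 of the 31 calls, the exception being Cyp2c23. How often this held among all called genes was not counted, so it is not read as particular to the members.

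**Figure D1:**
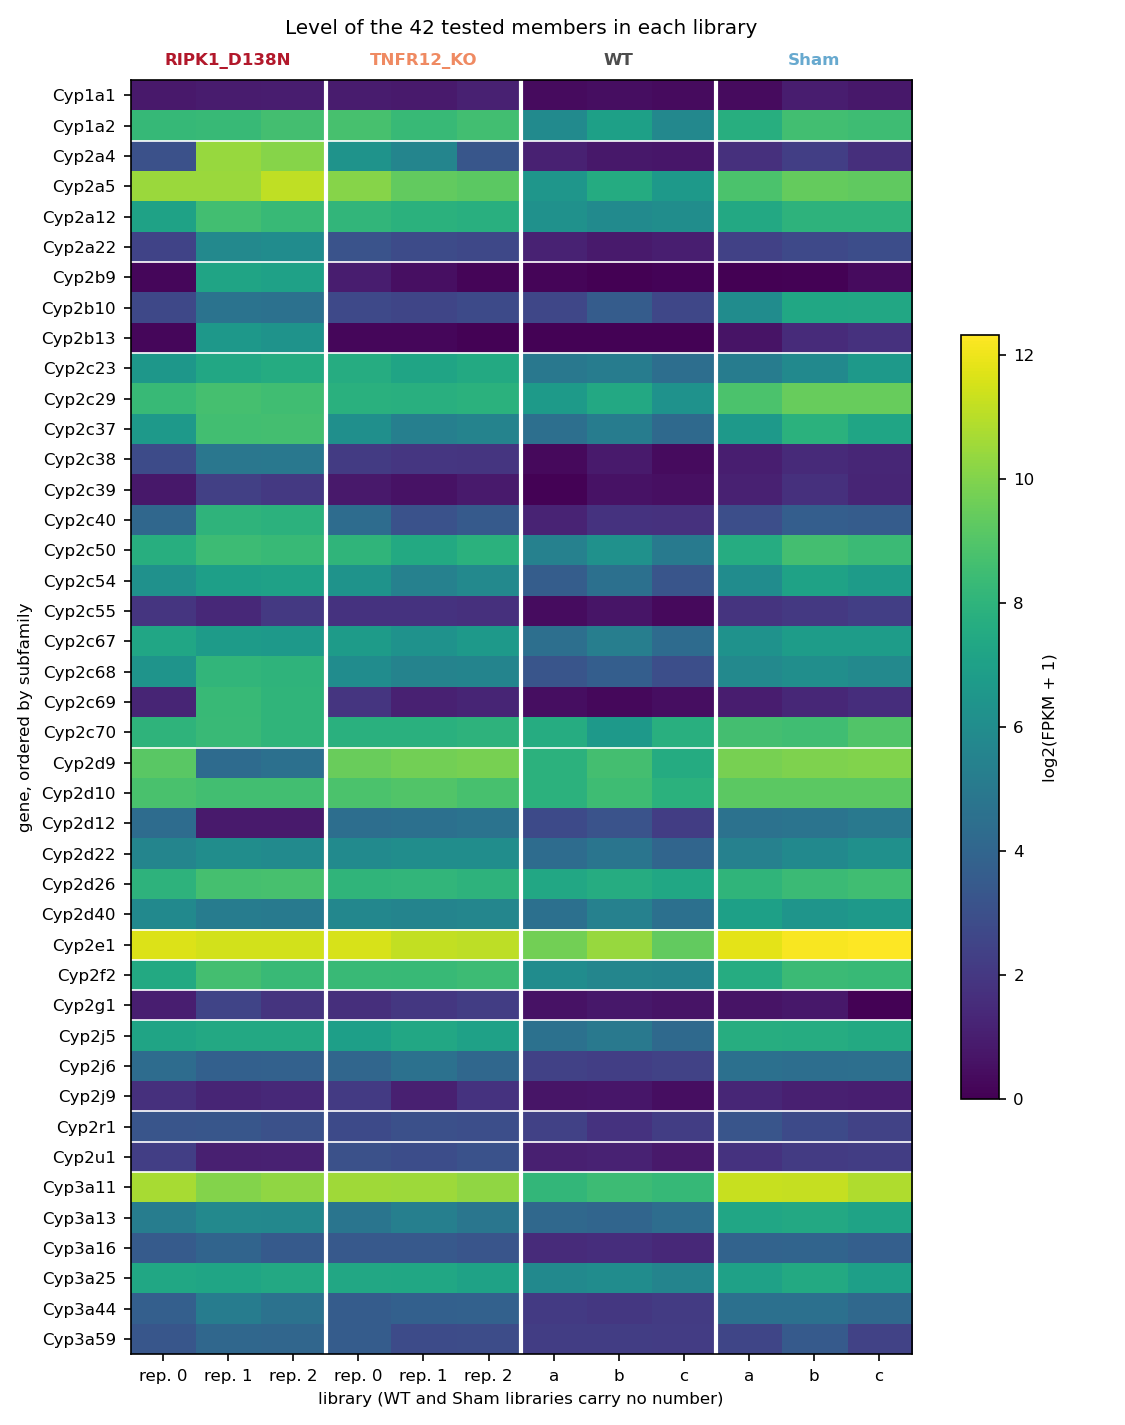
Level of the 42 tested genes (rows, ordered by subfamily, with white lines between subfamilies) as log2(FPKM + 1) in each of the 12 libraries (columns), from dark blue (0) to yellow. WT columns are darker than those of the other groups in most rows, and RIPK1_D138N replicate 0 differs from replicates 1 and 2 in Cyp2a4, Cyp2b9, Cyp2b13, Cyp2c40, Cyp2c69, Cyp2d9 and Cyp2d12.

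Because the libraries differed in total FPKM, the calls were repeated under 3 other scalings. In WT against Sham, 24 members fell and 0 rose with median-of-ratios scaling, 21 and 0 with quantile normalization, and 19 and 0 when every library was brought to a common sum. Over all genes the median was -0.36 as deposited, 0.08 with median-of-ratios scaling, -0.05 with quantile normalization and 0.63 with a common sum, and over the members -1.78, -1.29, -0.94 and -0.79. The common sum turned the split of all genes to 6657 rises and 1156 falls. Quantile normalization gave 2936 rises and 3165 falls, and median-of-ratios scaling 3693 and 2794, against 1917 and 4911 as deposited. In RIPK1_D138N against WT, 35, 34 and 30 members rose under the 3 scalings and 0, 1 and 1 fell, while all genes split into 2937 rises and 3570 falls, 3027 and 3286, and 1681 and 6063, against 3496 and 2570 as deposited. In TNFR12_KO against WT, 26, 28 and 23 members rose and 0 fell in each, while all genes split into 2716 and 3365, 2854 and 3092, and 1721 and 5555, against 3463 and 2056. Of the members called as deposited, 18 of 31 falls in WT, 30 of 37 rises in RIPK1_D138N and 23 of 34 rises in TNFR12_KO were called in all 3 scalings.

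Cyp2e1, which oxidises ethanol, acetaminophen and other small molecules, was the most abundant member. It measured 3211, 2816 and 2854 FPKM in RIPK1_D138N replicates 0, 1 and 2, 3059, 2341 and 2144 FPKM in TNFR12_KO, 834, 1355 and 653 FPKM in WT, and 3579, 4719 and 5089 FPKM in Sham. All 3 WT libraries were below every other library, and both mutants were below Sham without overlap. The mean in WT was 4.71-fold lower than in Sham, with a log2 fold change of -2.29 ± 0.268 (SE; adjusted p = 1.39e-05, limma). Against WT, Cyp2e1 rose by 1.71 log2 units in RIPK1_D138N (adjusted p = 0.000181) and by 1.46 in TNFR12_KO (adjusted p = 0.000677, both limma). Against Sham, the log2 fold change was -0.58 in RIPK1_D138N (adjusted p = 0.119) and -0.83 in TNFR12_KO (adjusted p = 0.0392, both limma). This last call was lost without TNFR12_KO replicate 1 (-0.78) or 2 (-0.72) or Sham library b (-0.78) or c (-0.73), and quantile normalization turned its direction (0.11).

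Cyp1a2, the Cyp1a enzyme of normal liver that handles caffeine and aromatic amines, made up 99.7% of the Cyp1a level. It measured 304, 313 and 397 FPKM in RIPK1_D138N, 419, 314 and 378 FPKM in TNFR12_KO, 59.3, 128 and 52.7 FPKM in WT and 207, 380 and 364 FPKM in Sham. The mutants overlapped with each other and with Sham, and all 3 groups were above WT. Cyp1a2 fell in WT against Sham (log2 fold change -2.04 ± 0.319, adjusted p = 0.000141, limma), a call lost under quantile normalization (-0.83, adjusted p = 0.0537). It rose against WT by 2.17 in RIPK1_D138N (adjusted p = 0.000111) and by 2.30 in TNFR12_KO (adjusted p = 7.95e-05, both limma). Cyp1a1, the inducible copy beside it on chromosome 9, stayed between 0.272 and 1.19 FPKM in all 12 libraries. Of the AHR targets outside the P450 families, Tiparp, a feedback inhibitor of AHR, rose in WT against Sham by 1.62 log2 units (adjusted p = 0.00193, limma). Ugt1a6a, a glucuronosyltransferase, fell by 1.40 (adjusted p = 0.000447, limma), a call lost with a common sum (-0.24). Nqo1, a quinone reductase, had a log2 fold change of 0.01, which was 1.05 with a common sum (adjusted p = 0.00119, limma). Ahr itself had a log2 fold change of -0.07 in WT against Sham (adjusted p = 0.82, limma), which was 1.04 with a common sum (adjusted p = 0.00261, limma). Aldh3a1 did not pass the filter and was not tested. It measured 1.09, 2.32 and 0.835 FPKM in WT, and at most 0.0838 FPKM in RIPK1_D138N, 0.061 FPKM in TNFR12_KO and 0.0243 FPKM in Sham.

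Cyp3a11, the main drug- and steroid-oxidising Cyp3a enzyme of mouse liver, made up 85.5% of the Cyp3a level. It measured 1654, 1036 and 1234 FPKM in RIPK1_D138N, 1506, 1481 and 1237 FPKM in TNFR12_KO, 282, 350 and 303 FPKM in WT and 2480, 2367 and 1813 FPKM in Sham. WT libraries were lowest, both mutants lay between WT and Sham, and neither mutant overlapped with either. Cyp3a11 fell 7.13-fold in WT against Sham (log2 fold change -2.82 ± 0.214, adjusted p = 4.96e-07, limma). It rose against WT by 2.05 in RIPK1_D138N (adjusted p = 7.97e-06) and by 2.17 in TNFR12_KO (adjusted p = 6.07e-06, both limma). Against Sham it fell by 0.78 in RIPK1_D138N (adjusted p = 0.0168, limma) and by 0.65 in TNFR12_KO (adjusted p = 0.0423, limma). Both of these calls were lost in other scalings, where quantile normalization gave TNFR12_KO a value of 0.06. The RIPK1_D138N call was also lost without replicate 1 (-0.62), replicate 2 (-0.75) or Sham library b (-0.72), and the TNFR12_KO call without any 1 of its replicates (-0.70, -0.69 and -0.56) or Sham library a (-0.56) or b (-0.60).

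Cyp3a13 lies apart from the main Cyp3a cluster, at chr5:137892932-137921619 against chr5:145854426-145879964 for Cyp3a11, and shared no stretch of 50 bases with another gene. It measured 35.7, 54.5 and 52.8 FPKM in RIPK1_D138N, 26.4, 38.9 and 27.8 FPKM in TNFR12_KO, 16.7, 15.2 and 20.3 FPKM in WT and 153, 172 and 139 FPKM in Sham. Both mutants lay between WT and Sham, with no overlap with either. Cyp3a13 fell 8.87-fold in WT against Sham (log2 fold change -3.08 ± 0.207, adjusted p = 2.14e-07, limma). Against Sham it fell by 1.69 in RIPK1_D138N (adjusted p = 0.000138) and by 2.30 in TNFR12_KO (adjusted p = 1.58e-05, both limma). Against WT it rose by 1.39 in RIPK1_D138N (adjusted p = 0.000123) and by 0.79 in TNFR12_KO (adjusted p = 0.0073, both limma), the second call being lost in another scaling. Cyp3a25, the next most abundant Cyp3a gene over all libraries, measured 161, 149 and 170 FPKM in RIPK1_D138N, 165, 162 and 135 FPKM in TNFR12_KO, 55.6, 62.1 and 46.7 FPKM in WT and 131, 175 and 124 FPKM in Sham. Against WT, Cyp3a25 rose by 1.54 in RIPK1_D138N (adjusted p = 1.69e-05) and by 1.48 in TNFR12_KO (adjusted p = 2.63e-05, both limma), and both mutants overlapped with Sham. Cyp3a16, Cyp3a44 and Cyp3a59, none above 35.1 FPKM, also rose in both mutants against WT, but the TNFR12_KO call of Cyp3a59 (0.87) was lost without TNFR12_KO replicate 0 (0.63), without any 1 WT library (0.85 to 0.89), with no filter on low values, with median-of-ratios scaling (0.65) and with a common sum (0.28).

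Cyp2b10, the classic target of CAR, showed the largest fall in WT against Sham on the log2(FPKM + 1) scale among the called members. It measured 5.41, 24.6 and 23.0 FPKM in RIPK1_D138N replicates 0, 1 and 2, 5.66, 4.88 and 5.76 FPKM in TNFR12_KO, 5.25, 10.9 and 5.12 FPKM in WT and 62.8, 161 and 164 FPKM in Sham. All libraries of the other 3 groups were below all Sham libraries, and within RIPK1_D138N replicate 0 was at the level of WT and TNFR12_KO. The WT mean was 18.2-fold below Sham (log2 fold change -3.96 ± 0.495, adjusted p = 2.34e-05, limma). Against Sham, Cyp2b10 also fell by 4.22 in TNFR12_KO (adjusted p = 0.000107) and by 2.92 in RIPK1_D138N (adjusted p = 0.00114, both limma). Against WT it passed the test in neither mutant, with -0.26 in TNFR12_KO (adjusted p = 0.69) and 1.04 in RIPK1_D138N (adjusted p = 0.0961, both limma). With RIPK1_D138N replicates 1 and 2 alone it was 1.69 (adjusted p = 0.00275, limma), and with replicate 0 alone -0.26.

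CAR itself did not keep that order. Nr1i3 measured 51.2, 69.9 and 60.7 FPKM in RIPK1_D138N, 56.1, 38.9 and 42.5 FPKM in TNFR12_KO, 8.65, 12.9 and 7.49 FPKM in WT and 35.4, 36.5 and 26.2 FPKM in Sham. All libraries of both mutants were above all Sham libraries, and WT was below the rest. It fell by 1.68 log2 units in WT against Sham (adjusted p = 3.49e-05, limma), a call lost with a common sum, and rose against WT by 2.55 in RIPK1_D138N (adjusted p = 2.34e-06) and by 2.15 in TNFR12_KO (adjusted p = 8e-06, both limma). Nr1i2, encoding PXR, fell by 1.56 in WT against Sham (adjusted p = 1.01e-06, limma), and Rxra, the shared partner of both receptors, by 1.27 (adjusted p = 0.00184, limma), a call lost under quantile normalization and with a common sum. Of the 6 tested receptor and partner genes, 0 rose and 3 fell in WT against Sham as deposited, against 16.4% and 41.9% of all tested genes. In RIPK1_D138N against WT 2 rose and 1 fell, and in TNFR12_KO against WT 4 rose and 1 fell. The TNFR12_KO rise of Nr3c1, the glucocorticoid receptor, turned to -0.17 with a common sum. In all 3 other scalings 1 of the 3 falls in WT was kept, and 1 rise in each mutant. Arnt, not called in WT against Sham as deposited (0.36), was called higher there with median-of-ratios scaling (0.85), quantile normalization (0.68) and a common sum (1.45). Nr3c1 was also called higher in WT against Sham with median-of-ratios scaling (0.54) and with a common sum (1.16).

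**Figure D2:**
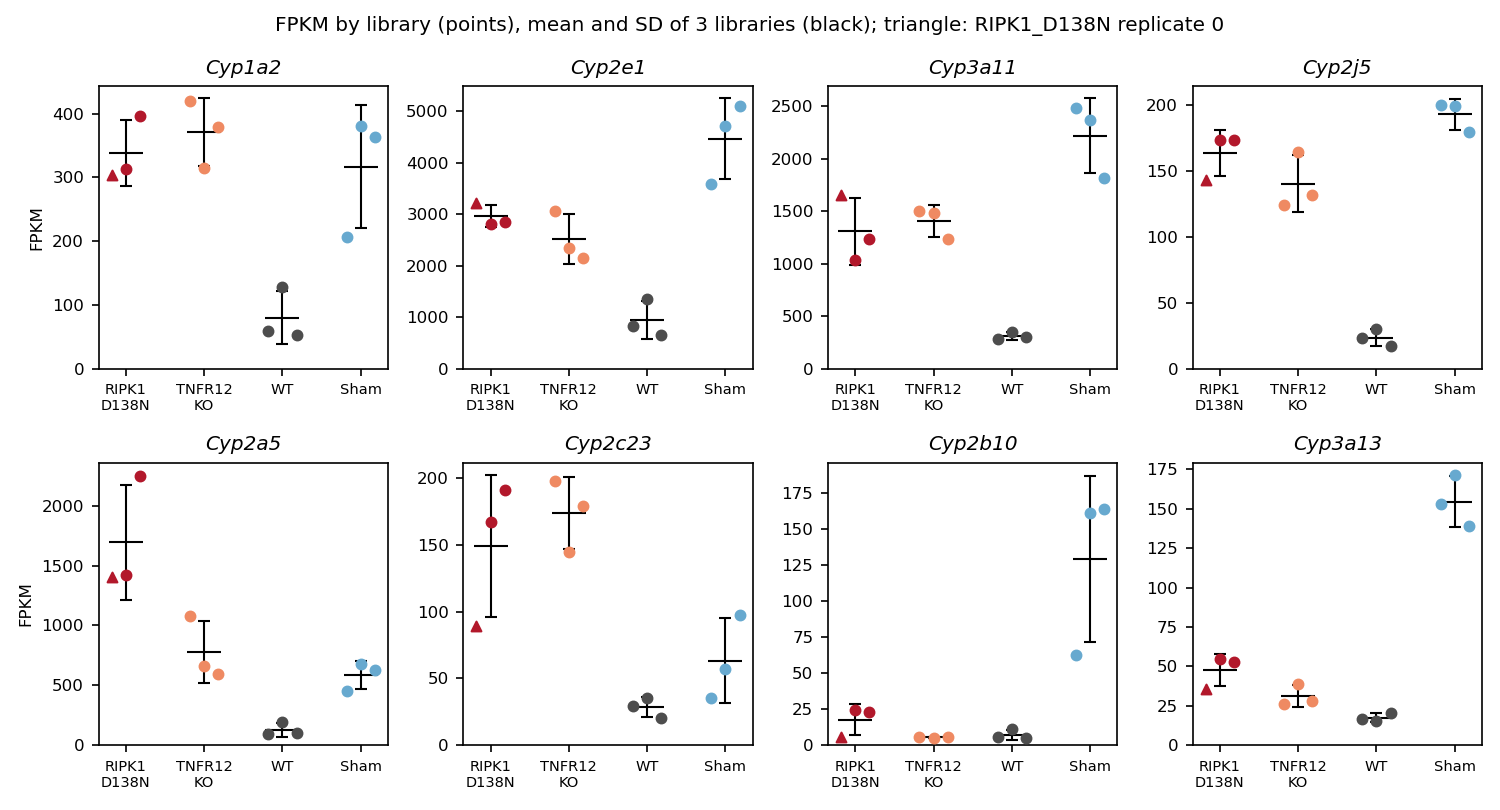
FPKM of 8 genes in each library (points; the triangle is RIPK1_D138N replicate 0), with the mean and SD of 3 libraries per group in black and a linear axis from 0. Cyp1a2, Cyp2e1, Cyp3a11 and Cyp2j5 are lowest in WT, Cyp2a5 and Cyp2c23 are higher in RIPK1_D138N than in WT, and Cyp2b10 and Cyp3a13 are above all other libraries in Sham.

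Cyp2j5, which makes epoxides of arachidonic acid, measured 143, 174 and 173 FPKM in RIPK1_D138N, 124, 165 and 132 FPKM in TNFR12_KO, 23.2, 30.1 and 17.4 FPKM in WT and 200, 199 and 179 FPKM in Sham. WT was far below the rest, and both mutants were below Sham without overlap, though neither passed the test against it (-0.24 and -0.47). It fell 8.19-fold in WT against Sham (log2 fold change -3.01 ± 0.199, adjusted p = 2e-07, limma). It rose against WT by 2.77 in RIPK1_D138N (adjusted p = 7.74e-07) and by 2.54 in TNFR12_KO (adjusted p = 1.45e-06, both limma). Its family members Cyp2j6 and Cyp2j9, of lower level, also rose in both mutants, by 1.61 and 0.84 in RIPK1_D138N and by 1.88 and 1.02 in TNFR12_KO. The RIPK1_D138N call of Cyp2j9, which was at most 0.656 FPKM in WT, was lost in another scaling.

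Cyp2f2, known for bioactivating naphthalene in mice, measured 177, 393 and 329 FPKM in RIPK1_D138N, 326, 317 and 344 FPKM in TNFR12_KO, 61.9, 49.6 and 45.6 FPKM in WT and 196, 332 and 317 FPKM in Sham. It was lowest in WT, and the other 3 groups overlapped. It fell 5.39-fold in WT against Sham (log2 fold change -2.38 ± 0.282, adjusted p = 1.52e-05, limma). It rose against WT by 2.43 in RIPK1_D138N (adjusted p = 1.74e-05) and by 2.64 in TNFR12_KO (adjusted p = 1.08e-05, both limma). Scgb1a1, the marker of lung club cells, which also make Cyp2f2, was listed at 0 in all 12 libraries.

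The 3 remaining subfamilies with 1 tested gene were of low level. Cyp2r1, a vitamin D hydroxylase, measured 8.45, 8.74 and 7.28 FPKM in RIPK1_D138N, 5.78, 6.93 and 6.65 FPKM in TNFR12_KO, 4.14, 2.49 and 3.64 FPKM in WT and 8.51, 5.79 and 4.38 FPKM in Sham. WT was lowest without overlap, and both mutants overlapped with Sham. Its fall in WT against Sham (log2 fold change -0.69, adjusted p = 0.0141, limma) turned to 0.34 with a common sum and was lost without WT library b (-0.52) or Sham library a (-0.47). Cyp2u1, which hydroxylates long-chain fatty acids, measured 3.91, 1.12 and 1.16 FPKM in RIPK1_D138N replicates 0, 1 and 2, 7.29, 6.49 and 7.46 FPKM in TNFR12_KO, 1.13, 1.24 and 0.794 FPKM in WT and 2.55, 3.46 and 3.74 FPKM in Sham. TNFR12_KO was above every other library, and RIPK1_D138N replicates 1 and 2 overlapped with WT. Cyp2u1 rose in TNFR12_KO by 1.98 against WT (adjusted p = 7.5e-05, limma) and by 0.94 against Sham (adjusted p = 0.0251, limma), the call against Sham being lost without TNFR12_KO replicate 0 (0.92) or 2 (0.90) or Sham library a (0.81). Cyp2g1, known as an olfactory P450, measured 1.07, 4.73 and 2.57 FPKM in RIPK1_D138N replicates 0, 1 and 2, 2.16, 2.995 and 3.69 FPKM in TNFR12_KO, 0.498 to 0.736 FPKM in WT and 0.0495 to 0.735 FPKM in Sham. It rose in RIPK1_D138N and TNFR12_KO against WT (1.13 and 1.29) and against Sham (1.30 and 1.46). All WT and Sham libraries lay below 1 FPKM, so Cyp2g1 passed the filter only through mutant libraries. These rises are therefore no independent support for a rise in the mutants. Both RIPK1_D138N calls were lost with replicate 0 alone, at 0.37 against WT (adjusted p = 0.354) and 0.55 against Sham (adjusted p = 0.269, both limma).

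The Cyp2c subfamily, with 13 tested genes on chromosome 19, summed to 1310, 2752 and 2567 FPKM in RIPK1_D138N replicates 0, 1 and 2, 980 to 1266 FPKM in TNFR12_KO, 400 to 489 FPKM in WT and 1381 to 2095 FPKM in Sham. All 13 rose in RIPK1_D138N against WT and 9 of 13 in TNFR12_KO. Cyp2c29, its most abundant gene, measured 318, 413 and 368 FPKM in RIPK1_D138N, 223, 214 and 228 FPKM in TNFR12_KO, 103, 171 and 77.1 FPKM in WT and 450, 701 and 688 FPKM in Sham. The 4 groups did not overlap for this gene, in the order WT, TNFR12_KO, RIPK1_D138N and Sham. It fell by 2.43 log2 units in WT against Sham (adjusted p = 8.19e-06, limma) and by 1.43 in TNFR12_KO against Sham (adjusted p = 0.00231, limma). RIPK1_D138N against TNFR12_KO, at 0.71, did not pass the test (adjusted p = 0.276, limma).

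Cyp2c54 and Cyp2c50, which oxidise arachidonic acid, were the Cyp2c genes among the 6 largest falls in WT against Sham. Cyp2c54 measured 75.2, 122 and 132 FPKM in RIPK1_D138N, 78.5, 41.0 and 54.6 FPKM in TNFR12_KO, 11.4, 22.3 and 8.56 FPKM in WT and 61.5, 137 and 109 FPKM in Sham, and fell by 2.81 (adjusted p = 3.82e-05, limma). Cyp2c50 measured 212, 352 and 314 FPKM in RIPK1_D138N, 268, 178 and 235 FPKM in TNFR12_KO, 42.1, 73.0 and 32.3 FPKM in WT and 193, 402 and 333 FPKM in Sham, and fell by 2.65 (adjusted p = 2.34e-05, limma). For both genes WT lay below all other libraries and the other 3 groups overlapped. Of the low Cyp2c genes, Cyp2c55 measured 1.70 to 3.07 FPKM in RIPK1_D138N, 2.24 to 2.48 FPKM in TNFR12_KO, 0.222 to 0.623 FPKM in WT and 2.57 to 3.83 FPKM in Sham. Cyp2c50 shared 30.7% of its 50-base stretches with other genes and Cyp2c54 25.7%.

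Cyp2c23, an arachidonic acid epoxygenase that shares no 50-base stretch with another gene, was called higher in both mutants than in Sham. It measured 89.4, 167 and 192 FPKM in RIPK1_D138N, 198, 145 and 179 FPKM in TNFR12_KO, 29.2, 35.4 and 20.6 FPKM in WT and 35.0, 56.9 and 97.7 FPKM in Sham. TNFR12_KO was above Sham without overlap, RIPK1_D138N replicate 0 overlapped with Sham, and WT overlapped with the lowest Sham library. Against WT it rose by 2.32 in RIPK1_D138N (adjusted p = 0.00016) and by 2.60 in TNFR12_KO (adjusted p = 7.5e-05, both limma). Against Sham it rose by 1.56 in TNFR12_KO (adjusted p = 0.0076) and by 1.28 in RIPK1_D138N (adjusted p = 0.0181, both limma), the second call being lost without RIPK1_D138N replicate 1 (1.16) or 2 (1.06) or Sham library a (0.92). Its fall in WT against Sham (-1.04, adjusted p = 0.024, limma) was lost without WT library c (-0.83) or Sham library c (-0.67) and turned to 0.19 with a common sum.

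Cyp2c70, which makes the muricholic acids of mouse bile, had the smallest rise in RIPK1_D138N against WT among the 13 Cyp2c genes. It measured 255, 327 and 263 FPKM in RIPK1_D138N, 228, 228 and 246 FPKM in TNFR12_KO, 197, 98.1 and 215 FPKM in WT and 401, 369 and 501 FPKM in Sham. No group overlapped with another, and within WT library b was far below libraries a and c. It fell by 1.38 log2 units in WT against Sham (adjusted p = 0.000592, limma), a call lost under quantile normalization (-0.22) and with a common sum (-0.12). The rise in RIPK1_D138N against WT (0.79, adjusted p = 0.0217, limma) was lost without WT library b (0.44) or RIPK1_D138N replicate 1 (0.68) and turned to -0.10 under quantile normalization.

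Among Cyp2d genes, Cyp2d10 and Cyp2d26 were abundant and had the smallest falls of the subfamily in WT. Cyp2d10 measured 431, 378 and 382 FPKM in RIPK1_D138N, 457, 496 and 421 FPKM in TNFR12_KO, 237, 355 and 235 FPKM in WT and 599, 596 and 590 FPKM in Sham. WT lay below and Sham above both mutants, which overlapped with each other. Cyp2d10 fell by 1.13 log2 units in WT against Sham (adjusted p = 0.000187, limma), but the value turned to 0.01 under quantile normalization and 0.12 with a common sum. Cyp2d26 likewise fell by 0.88 (adjusted p = 0.0036, limma) as deposited, against 0.27 under quantile normalization and 0.37 with a common sum. Cyp2d22 rose against WT in both mutants, by 1.48 in RIPK1_D138N (adjusted p = 0.000176) and by 1.60 in TNFR12_KO (adjusted p = 0.000108, both limma). Cyp2d40 fell against Sham in all 3 other groups, by 1.33 in RIPK1_D138N (adjusted p = 0.00314), by 1.05 in TNFR12_KO (adjusted p = 0.0127; lost in other scalings) and by 1.85 in WT (adjusted p = 7.08e-05, all limma).

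Cyp2a5, the coumarin hydroxylase of mouse liver, was higher in RIPK1_D138N than in any other group. It measured 1407, 1426 and 2253 FPKM in RIPK1_D138N replicates 0, 1 and 2, 1077, 661 and 595 FPKM in TNFR12_KO, 88.4, 192 and 99.8 FPKM in WT and 453, 674 and 630 FPKM in Sham. RIPK1_D138N was above every other library, replicate 0 included, TNFR12_KO overlapped with Sham, and WT was lowest. Cyp2a5 fell 4.62-fold in WT against Sham (log2 fold change -2.27 ± 0.324, adjusted p = 6.77e-05, limma). It rose against WT by 3.78 in RIPK1_D138N (adjusted p = 2.15e-06) and by 2.65 in TNFR12_KO (adjusted p = 2.98e-05, both limma). With replicate 0 alone the value against WT was 3.55, and with replicates 1 and 2 alone 3.90. Against Sham it rose by 1.52 in RIPK1_D138N (adjusted p = 0.00449, limma), a call lost with replicate 0 alone (1.28, adjusted p = 0.0957, limma), while TNFR12_KO, at 0.38, did not pass the test (adjusted p = 0.407, limma).

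Cyp2a4, a steroid hydroxylase and the closest copy of Cyp2a5, behaved otherwise. It measured 7.38 FPKM in RIPK1_D138N replicate 0, against 1347 and 1072 FPKM in replicates 1 and 2, 78.0, 47.5 and 8.83 FPKM in TNFR12_KO, 1.19, 0.729 and 0.688 FPKM in WT and 2.29, 3.83 and 2.19 FPKM in Sham. RIPK1_D138N replicate 0 lay below all 3 TNFR12_KO libraries, and replicates 1 and 2 were far above all other libraries. Against WT, Cyp2a4 rose by 6.95 in RIPK1_D138N (adjusted p = 0.00144, limma), which splits into 2.18 for replicate 0 alone and 9.34 for replicates 1 and 2 alone. Its rise of 4.18 in TNFR12_KO (adjusted p = 0.0304, limma) was lost without TNFR12_KO replicate 0 (3.56) or 1 (3.91) or any 1 WT library (4.11 to 4.29).

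Cyp2a12, a further steroid hydroxylase of the subfamily, measured 134, 377 and 314 FPKM in RIPK1_D138N, 278, 233 and 213 FPKM in TNFR12_KO, 73.2, 57.4 and 64.1 FPKM in WT and 170, 249 and 252 FPKM in Sham. WT was lowest, and the other 3 groups overlapped, with RIPK1_D138N replicate 0 the lowest library among them. Against WT, Cyp2a12 rose by 1.94 in RIPK1_D138N (adjusted p = 0.000249) and by 1.88 in TNFR12_KO (adjusted p = 0.000376, both limma). The RIPK1_D138N value was 1.04 with replicate 0 alone and 2.40 with replicates 1 and 2 alone.

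The coding sequences of Cyp2a4 (chr7:26307169-26315088, plus strand) and Cyp2a5 (chr7:26835305-26843548, plus strand) are 98.5% identical, with 23 differing positions of 1485, and 36.1% of the 50-base stretches of the Cyp2a4 transcript also occur in Cyp2a5. The stretch of coding positions 580 to 669, counted from the start codon in the GENCODE M21 transcripts on GRCm38, holds 5 of these differences. It is shown because a fragment can be assigned to either gene only where it covers such a base; capitals mark the differing bases.
Cyp2a4: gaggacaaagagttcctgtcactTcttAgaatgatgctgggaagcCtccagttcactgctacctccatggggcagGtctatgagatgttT
Cyp2a5: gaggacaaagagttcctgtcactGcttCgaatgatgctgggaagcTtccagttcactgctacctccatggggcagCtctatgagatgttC
Fragments that cover no differing base fit both genes, so the levels of this pair are uncertain to the extent that the authors' assignment could split them.

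The promoters of the pair are as close. The 300 bases from 250 before to 50 after the start were taken from RefSeq on GRCm38.p6, at chr7:26306942-26307241 for Cyp2a4 and chr7:26835089-26835388 for Cyp2a5, both on the plus strand. They were 97.7% identical. Each sequence has 6 unmatched bases in capitals, which include the base opposite a gap, and the pair has 2 gap columns. They are shown because the levels of both genes differed between RIPK1_D138N libraries to such unequal extent.
Cyp2a4: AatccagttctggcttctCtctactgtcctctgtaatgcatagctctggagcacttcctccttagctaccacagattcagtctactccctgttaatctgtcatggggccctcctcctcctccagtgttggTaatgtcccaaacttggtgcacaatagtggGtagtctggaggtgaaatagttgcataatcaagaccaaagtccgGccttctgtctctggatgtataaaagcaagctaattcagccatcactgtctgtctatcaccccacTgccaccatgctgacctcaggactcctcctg
Cyp2a5: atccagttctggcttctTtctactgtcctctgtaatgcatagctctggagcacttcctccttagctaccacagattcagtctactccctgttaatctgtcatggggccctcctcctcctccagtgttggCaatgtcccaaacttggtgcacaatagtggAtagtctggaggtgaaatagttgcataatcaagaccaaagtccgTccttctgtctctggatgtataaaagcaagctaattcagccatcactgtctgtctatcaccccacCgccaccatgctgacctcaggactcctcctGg

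Cyp genes known for a higher level in female mouse liver were examined as a group, because 2 of the RIPK1_D138N libraries carried Xist. The list used here holds 15 genes, 13 of them members and 14 tested, with Cyp3a41a and Cyp3a41b beside the members. Its summed level was 298 FPKM in RIPK1_D138N replicate 0, 2852 and 2351 FPKM in replicates 1 and 2, 203 to 309 FPKM in TNFR12_KO, 37.2 to 60.8 FPKM in WT and 189 to 247 FPKM in Sham. Replicate 0 was within the range of TNFR12_KO, and replicates 1 and 2 were above all other libraries. All 14 tested genes rose in RIPK1_D138N against WT (median 3.74), of which 8 were called with replicate 0 alone and 14 with replicates 1 and 2 alone. Cyp2b9 and Cyp2g1 are among these rises but passed the filter only through mutant libraries, so they are no independent support. In TNFR12_KO against WT 9 rose (median 1.56), Cyp2g1 among them, and in WT against Sham 6 fell and 0 rose (median -1.32). In a fit without the RIPK1_D138N libraries, Cyp2b13, Cyp2c38, Cyp2c40, Cyp2c69 and Cyp3a41a were also called lower in WT against Sham. The markers of sex given above move with this difference within RIPK1_D138N, and the part of sex in it cannot be told apart from that of the single library. Sinusoidal endothelium markers moved with it too: their 6 genes summed to 14.1 FPKM in RIPK1_D138N replicate 0, against 82.5 and 52.7 FPKM in replicates 1 and 2. Their sums were 8.94 to 41.9 FPKM in TNFR12_KO, 19.6 to 23.9 FPKM in WT and 23.98 to 38.3 FPKM in Sham. Of the stellate cell markers, Lrat measured 1.65 FPKM in replicate 0, against 4.12 and 4.14 FPKM in replicates 1 and 2. Reln measured 6.68, against 15.3 and 15.1 FPKM. Col1a1, Pdgfrb and Des were also lower in replicate 0, while Dcn, at 121 against 121 and 114 FPKM, was not. The part of either cell type in the split was not tested.

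Cyp2b9 and Cyp2b13 showed it most plainly. Cyp2b9 measured 0.177 FPKM in RIPK1_D138N replicate 0, against 146 and 129 FPKM in replicates 1 and 2, 1.01, 0.424 and 0.119 FPKM in TNFR12_KO, 0.132, 0.0185 and 0.0701 FPKM in WT and 0.0221, 0.0502 and 0.301 FPKM in Sham. Cyp2b13 measured 0.177 FPKM in replicate 0, against 92.8 and 79.9 FPKM in replicates 1 and 2, 0.156, 0.148 and 0.0340 FPKM in TNFR12_KO, 0.0659, 0.0464 and 0.0561 FPKM in WT and 0.552, 1.86 and 2.41 FPKM in Sham. Both genes were near 0 in all libraries but RIPK1_D138N replicates 1 and 2, apart from a low level of Cyp2b13 in Sham. Cyp2b9 passed the filter only through libraries of the mutants, so its rise in RIPK1_D138N is no independent support for a rise there. For Cyp2b9 the log2 fold change against WT was 4.72 in RIPK1_D138N as a whole (adjusted p = 0.00871, limma), 0.13 with replicate 0 alone (adjusted p = 0.74) and 7.01 with replicates 1 and 2 alone (adjusted p = 5.55e-10). For Cyp2b13 it was 4.30 (adjusted p = 0.0087, limma), 0.16 and 6.37.

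The 2 promoters that go with this joint pattern, at chr7:26173159-26173458 for Cyp2b9 and chr7:26061245-26061544 for Cyp2b13, both on the plus strand of GRCm38.p6 and from RefSeq, differ at 2 of 300 bases (99.3% identical), given in capitals.
Cyp2b9: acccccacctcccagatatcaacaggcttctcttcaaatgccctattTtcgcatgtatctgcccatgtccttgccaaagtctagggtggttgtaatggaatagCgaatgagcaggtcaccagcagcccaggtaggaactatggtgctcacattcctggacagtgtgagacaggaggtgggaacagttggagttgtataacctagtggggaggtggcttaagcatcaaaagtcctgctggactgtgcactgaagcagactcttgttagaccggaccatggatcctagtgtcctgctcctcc
Cyp2b13: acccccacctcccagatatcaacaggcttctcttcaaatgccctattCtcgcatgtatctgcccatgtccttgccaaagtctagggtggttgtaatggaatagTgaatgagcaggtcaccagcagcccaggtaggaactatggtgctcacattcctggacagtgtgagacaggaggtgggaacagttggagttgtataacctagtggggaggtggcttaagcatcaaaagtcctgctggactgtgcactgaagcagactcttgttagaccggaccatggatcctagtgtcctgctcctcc
Their coding sequences are less alike, at 92.7% identity, and 11.2% of the 50-base stretches of Cyp2b9 and 27.3% of those of Cyp2b13 are shared with another gene.

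In the Cyp2c subfamily the same split ran through Cyp2c69, Cyp2c40, Cyp2c38 and Cyp2c68. Cyp2c69 measured 1.41 FPKM in RIPK1_D138N replicate 0, against 310 and 266 FPKM in replicates 1 and 2, 2.78, 1.18 and 1.40 FPKM in TNFR12_KO, 0.369, 0.218 and 0.359 FPKM in WT and 0.990, 1.56 and 2.09 FPKM in Sham. Cyp2c40 measured 16.3 FPKM in replicate 0, against 258 and 237 FPKM in replicates 1 and 2, 19.4, 7.72 and 10.1 FPKM in TNFR12_KO, 1.33, 2.48 and 2.37 FPKM in WT and 6.70, 11.7 and 10.8 FPKM in Sham. For Cyp2c69, replicate 0 overlapped with TNFR12_KO and Sham. For Cyp2c40, replicate 0 was within the TNFR12_KO range and above Sham. Against WT, the log2 fold change of Cyp2c69 was 5.48 in RIPK1_D138N (adjusted p = 0.00366, limma), 0.87 with replicate 0 alone (adjusted p = 0.0513) and 7.78 with replicates 1 and 2 alone (adjusted p = 5.21e-10). The values of Cyp2c40 were 5.09, 2.52 and 6.37, those of Cyp2c38 3.69, 2.27 and 4.39, and those of Cyp2c68 4.21, 3.09 and 4.76.

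Several genes of the subfamily have close copies. Of the 50-base stretches of the transcripts, 72.1% of Cyp2c40, 54.8% of Cyp2c69 and 52.8% of Cyp2c67 occur in another gene, the 3 members above 50%. To show what separates a pair, 90 coding bases of Cyp2c40 (from coding position 1094) and Cyp2c69 (from 1007) on chromosome 19 are given from the GENCODE M21 transcripts, with their 8 differing bases in capitals.
Cyp2c40: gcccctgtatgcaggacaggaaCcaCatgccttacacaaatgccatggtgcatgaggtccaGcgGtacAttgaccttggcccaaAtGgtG
Cyp2c69: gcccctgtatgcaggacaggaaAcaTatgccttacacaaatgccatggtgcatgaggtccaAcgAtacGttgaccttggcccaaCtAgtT
Cyp2c67, whose coding sequence is 97.7% identical to that of Cyp2c69, did not share its split: it measured 154 FPKM in RIPK1_D138N replicate 0 and 109 and 101 FPKM in replicates 1 and 2. Among all 42 tested members, 25 share more than 10% of their 50-base stretches with another gene and 6 share none.

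The split was also seen in Cyp2a22 and Cyp2c37. Cyp2a22 measured 4.58 FPKM in RIPK1_D138N replicate 0, against 55.2 and 62.0 FPKM in replicates 1 and 2, 7.90, 6.11 and 5.43 FPKM in TNFR12_KO, 1.30, 0.837 and 1.03 FPKM in WT and 4.15, 5.59 and 6.53 FPKM in Sham. Cyp2c37, which is on neither sex-biased list, measured 97.8 FPKM in replicate 0, against 389 and 402 FPKM in replicates 1 and 2, 70.3, 38.5 and 45.0 FPKM in TNFR12_KO, 21.8, 35.5 and 17.6 FPKM in WT and 97.4, 232 and 149 FPKM in Sham. Replicate 0 was within the Sham range for both genes. Cyp2a22 rose in RIPK1_D138N against WT (3.72, adjusted p = 0.000468, limma), with 1.45 for replicate 0 alone and 4.86 for replicates 1 and 2 alone. Cyp2c37 rose in RIPK1_D138N against WT (3.32, adjusted p = 0.000119, limma), with 1.99 for replicate 0 alone and 3.99 for replicates 1 and 2 alone.

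The reverse split was seen in Cyp2d9, a testosterone hydroxylase known for its higher level in male mice, and in its neighbour Cyp2d12, which was singled out after its values were seen. Cyp2d9 measured 572 FPKM in RIPK1_D138N replicate 0, against 18.8 and 22.3 FPKM in replicates 1 and 2, 716, 830 and 880 FPKM in TNFR12_KO, 238, 395 and 187 FPKM in WT and 882, 975 and 994 FPKM in Sham. Cyp2d12 measured 19.5 FPKM in replicate 0, against 0.836 and 0.872 FPKM in replicates 1 and 2, 20.7, 22.4 and 24.8 FPKM in TNFR12_KO, 5.75, 7.81 and 3.72 FPKM in WT and 23.6, 25.5 and 30.5 FPKM in Sham. Replicate 0 was above WT and somewhat below TNFR12_KO for both genes, while replicates 1 and 2 were below every other library. Against WT, Cyp2d9 had a log2 fold change of 1.13 with replicate 0 alone (adjusted p = 0.0285) and -3.60 with replicates 1 and 2 alone (adjusted p = 6.97e-07), and -2.03 with all 3 (adjusted p = 0.0807, limma). Cyp2d12 had 1.65 (adjusted p = 0.00204), -1.82 (adjusted p = 4.5e-05) and -0.66 (adjusted p = 0.432, limma).

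The spread of RIPK1_D138N also touched the comparison of the other groups, because all 12 libraries share 1 estimate of the spread per gene. Cyp2d9 in WT against Sham, at -1.86, missed the threshold in the shared fit (adjusted p = 0.0975, limma) and passed it in a fit of the other 9 libraries (adjusted p = 6.82e-05, limma). That fit gave 36 falls and 0 rises in WT against Sham and 37 rises and 0 falls in TNFR12_KO against WT. Of all 11718 tested genes, it gave 4897 falls and 1923 rises in WT against Sham, and 3502 rises and 1998 falls in TNFR12_KO against WT. Of the 8 male-biased liver genes listed, 1 rose and 4 fell in WT against Sham in the shared fit, and 2 rose and 1 fell in TNFR12_KO against WT. Besides Cyp2d9, the fit of 9 libraries also called Cyp4a12a (-2.00, adjusted p = 0.000604) and Cyp4a12b (-2.29, adjusted p = 3.78e-05, both limma) lower in WT against Sham. The single rise in WT and the single fall in TNFR12_KO were those of Mup20, a major urinary protein gene that is listed at 0 in every TNFR12_KO and Sham library. Mup20 is among the 24 genes listed at 0 in a group. Whether these zeros reflect its level or how the gene was listed was not tested, so neither call is read as a change in level. In RIPK1_D138N against WT none of the 8 passed limma's test with all 3 libraries, with 0 higher and 1 lower at an unadjusted p under 0.05. The libraries moved in opposite directions: with replicate 0 alone 8 of 8 rose, and with replicates 1 and 2 alone 6 of 8 fell and 0 rose. Mup20 measured 12470 FPKM in replicate 0, against 62.0 and 76.1 FPKM in replicates 1 and 2 and 1938, 2796 and 1412 FPKM in WT, with log2 fold changes of 2.66 for replicate 0 alone and -4.82 for replicates 1 and 2 alone.

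**Figure D3:**
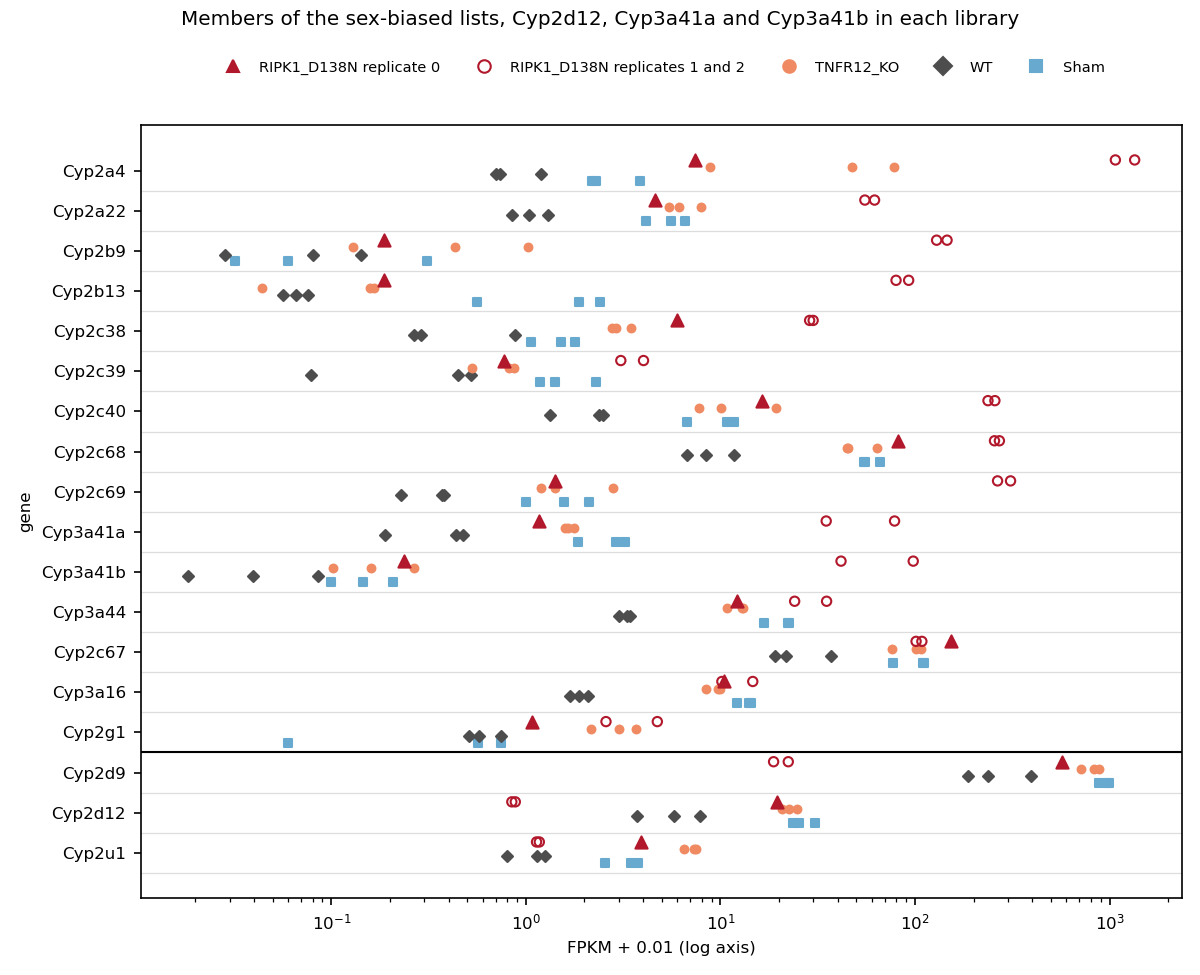
FPKM + 0.01 (log axis) of the 15 genes of the female-biased list (above the black line) and of Cyp2d9, Cyp2d12 and Cyp2u1 (below it) in each library; filled triangles are RIPK1_D138N replicate 0 and open circles replicates 1 and 2. Replicates 1 and 2 lie to the right of all other libraries for Cyp2a4, Cyp2b9, Cyp2b13, Cyp2c40 and Cyp2c69, where replicate 0 lies among or near the other groups, and to the left of all for Cyp2d9 and Cyp2d12.

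**Figure D4:**
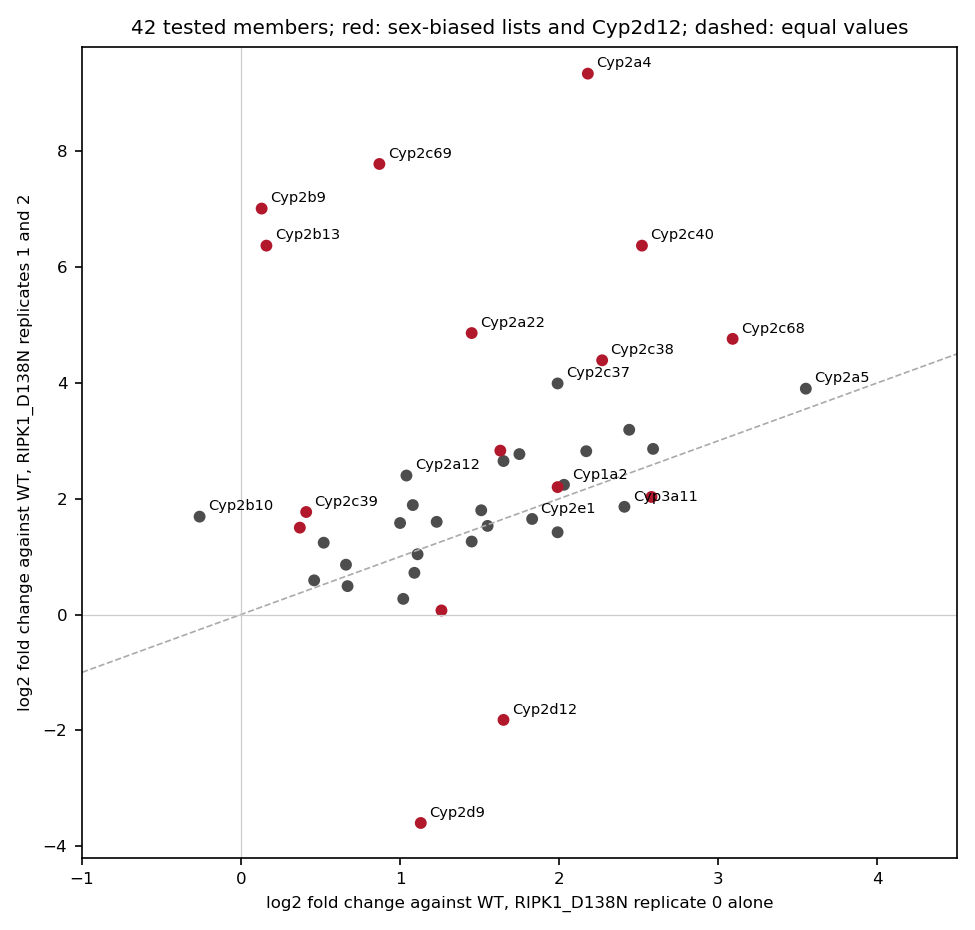
Log2 fold change against WT of the 42 tested members, with RIPK1_D138N replicate 0 alone on the horizontal axis and replicates 1 and 2 on the vertical axis (dashed line: equal values; red: genes of the sex-biased lists and Cyp2d12). Both axes use the same 3 WT libraries; Cyp2a5 (3.55 and 3.90) and Cyp1a2 (2.03 and 2.24) lie near the line, Cyp2a4 (2.18 and 9.34) and Cyp2b9 (0.13 and 7.01) far above it, and Cyp2d9 (1.13 and -3.60) below it.

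The rise of the family against WT was not confined to the libraries with Xist. With RIPK1_D138N replicate 0 alone, 32 members rose and 0 fell against WT, and with replicates 1 and 2 alone 37 rose and 2 fell (limma). Of all tested genes, 21.7% rose and 15.3% fell with replicate 0 alone, and 28.6% and 19.4% with replicates 1 and 2 alone. Of the 37 rises called with all 3 libraries, 28 were kept with replicate 0 alone; those lost were Cyp1a1, Cyp2b9, Cyp2b13, Cyp2c39, Cyp2c69, Cyp2c70, Cyp2d10, Cyp2d26 and Cyp2g1. Leaving out the genes of the sex-biased lists and Cyp2d12, 26 tested members remained, of which 24 rose in RIPK1_D138N against WT (median 1.61), 23 rose in TNFR12_KO against WT (median 1.38) and 23 fell in WT against Sham (median -1.94), with 0 calls in the opposite direction. The lists were chosen with earlier results known and Cyp2d12 after its values were seen, so these counts are no independent support. Cyp2d9, Cyp2d12 and Cyp2u1, not called in RIPK1_D138N against WT, were among the genes left out. Cyp2c37, which splits between the RIPK1_D138N libraries, stayed in.

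Between the mutants few members differed. In RIPK1_D138N against TNFR12_KO, Cyp2c38 (2.21, adjusted p = 0.0356) and Cyp2c68 (1.81, adjusted p = 0.0443) were higher and Cyp2u1 (-1.51, adjusted p = 0.0222, limma) lower, against a background of 0.35% higher and 0.58% lower. Without adjustment 16 members were higher and 3 lower at p under 0.05. The share of all tested genes at that unadjusted cut was not taken, here or for the 26 members below. Cyp2c38 measured 5.98, 28.7 and 30.0 FPKM in RIPK1_D138N replicates 0, 1 and 2, and 3.46, 2.89 and 2.77 FPKM in TNFR12_KO. Cyp2c68 measured 82.2, 272 and 256 FPKM in RIPK1_D138N, and 63.6, 44.6 and 45.3 FPKM in TNFR12_KO. For both genes replicate 0 was the RIPK1_D138N library nearest to TNFR12_KO, without overlap. With replicate 0 alone the count was 0 higher and 0 lower, and with replicates 1 and 2 alone 13 higher and 3 lower. The background of these fits was 0.265% higher and 0.0683% lower with replicate 0 alone, and 2.33% and 2.69% with replicates 1 and 2 alone. All 3 calls were lost when RIPK1_D138N replicate 1 or 2 or any 1 TNFR12_KO replicate was left out: Cyp2c38 ranged from 1.84 to 2.28, Cyp2c68 from 1.51 to 1.97 and Cyp2u1 from -1.57 to -1.31. Of the 26 members outside the sex-biased lists and Cyp2d12, 0 passed limma's test, with 7 higher and 0 lower at an unadjusted p under 0.05, Cyp2a5 among them with 1.14 (adjusted p = 0.131), although its groups did not overlap.

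Against Sham, both mutants had members on both sides. In RIPK1_D138N 11 rose and 7 fell, with a background of 7.51% higher and 22.7% lower and a median of 0.13 against -0.22 over all tested genes. Of the 11 rises, 8 were genes of the female-biased list, and with replicate 0 alone 1 member rose and 2 fell, while replicates 1 and 2 alone gave 15 and 9. The background was 2.57% higher and 6.33% lower with replicate 0 alone, and 9.40% and 20.5% with replicates 1 and 2 alone. Leaving out RIPK1_D138N replicate 1 or 2 left 6 rises. In TNFR12_KO 3 rose (Cyp2c23, Cyp2g1 and Cyp2u1) and 9 fell, with a background of 7.47% higher and 18.2% lower and a median of -0.21 against -0.18. Cyp2g1 in both mutants and Cyp2b9 in RIPK1_D138N are counted among the rises but passed the filter only through mutant libraries. These 9 falls dropped to 3 in each of the other scalings, and to 4 without TNFR12_KO replicate 1 or 2 and 5 without Sham library b or c. Cyp2b10 and Cyp3a13 fell against Sham in both mutants in each of the scalings.

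Genes that serve P450 enzymes were set beside the family. The shares of all tested genes apply to these lists too: in WT against Sham, 41.9% fell and 16.4% rose. Against WT, 29.8% rose and 21.9% fell in RIPK1_D138N, and 29.6% rose and 17.5% fell in TNFR12_KO. All 5 electron donor genes fell in WT against Sham as deposited, but 1 of these falls, that of Cyb5a, was kept in all 3 other scalings. Cyb5b turned from -0.63 to 0.13 under quantile normalization and 0.58 with a common sum, and Por (-0.33 in both), Cyb5r3 (-0.42 and -0.31) and Pgrmc1 (-0.32 and -0.29) lost their calls under both. All 5 rose in RIPK1_D138N against WT, of which 2 were kept in all scalings, and 4 of 5 rose in TNFR12_KO against WT, all 4 of them kept. Cyb5a, cytochrome b5, measured 1415, 1706 and 1593 FPKM in RIPK1_D138N, 1794, 1757 and 1309 FPKM in TNFR12_KO, 412, 437 and 395 FPKM in WT and 2002, 1574 and 1636 FPKM in Sham. WT was lowest and the other groups overlapped; the log2 fold change was -2.06 in WT against Sham (adjusted p = 2.13e-06, limma). Por, the oxidoreductase itself, had 177, 228 and 199 FPKM in RIPK1_D138N, 156, 137 and 120 FPKM in TNFR12_KO, 90.8, 108 and 95.9 FPKM in WT and 202, 361 and 356 FPKM in Sham. It rose against WT by 1.02 in RIPK1_D138N (adjusted p = 0.00205, limma), a call lost under quantile normalization and a common sum, while TNFR12_KO, at 0.48, did not pass the test (adjusted p = 0.0982, limma).

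Of 9 genes of heme supply and breakdown, 7 fell and 1 rose in WT against Sham, and 7 rose and 1 fell in each mutant against WT. In all 3 other scalings 5 of the 7 falls in WT were kept, and of the rises 4 in RIPK1_D138N and 6 in TNFR12_KO. Alas1, the rate-limiting enzyme of heme synthesis in liver, measured 212, 382 and 353 FPKM in RIPK1_D138N, 436, 233 and 540 FPKM in TNFR12_KO, 101, 71.0 and 82.5 FPKM in WT and 405, 1031 and 757 FPKM in Sham. It fell by 3.01 log2 units in WT against Sham (adjusted p = 2.13e-05, limma). Cpox, a later enzyme of the pathway, measured 26.3, 27.3 and 30.0 FPKM in RIPK1_D138N, 22.4, 22.6 and 27.2 FPKM in TNFR12_KO, 5.70, 5.999 and 4.81 FPKM in WT and 65.6, 75.6 and 71.4 FPKM in Sham, and fell by 3.47 in WT against Sham (adjusted p = 5.02e-09, limma). The gene that rose was Hmox1, heme oxygenase, which degrades heme. Hmox1 measured 113, 23.0 and 20.6 FPKM in RIPK1_D138N, 58.9, 132 and 67.3 FPKM in TNFR12_KO, 433, 400 and 388 FPKM in WT and 33.8, 19.9 and 25.9 FPKM in Sham, and rose by 3.92 in WT against Sham (adjusted p = 3.25e-05, limma).

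Of 6 hepatocyte transcription factor genes, 4 fell in WT against Sham and 0 rose, 1 rose in RIPK1_D138N against WT and 4 rose in TNFR12_KO against WT, with 0 falls in either mutant. In WT against Sham, Cebpa turned from -0.78 to 0.40 under quantile normalization and 0.46 with a common sum, and 2 of the 4 falls were kept in all 3 other scalings. The factor that rose in both was Nr1h4, the bile acid receptor, with 2.07 in RIPK1_D138N (adjusted p = 8.93e-07) and 2.29 in TNFR12_KO (adjusted p = 4.68e-07, both limma). All 6 hepatocyte marker genes fell in WT against Sham as deposited, but 2 falls, those of Cps1 and Tat, were kept in all 3 other scalings. Under quantile normalization and with a common sum, the calls of F2 (-0.04 and 0.02), Ttr (-0.01 and -0.28) and Hnf4a (-0.32 and -0.20) were lost, and F2 turned direction with a common sum, while Apoa1 lost its call under quantile normalization (-0.51). In each mutant 5 of 6 rose against WT, of which 3 were kept in all scalings. Their summed level was 14090 to 15100 FPKM in RIPK1_D138N, 14300 to 16800 FPKM in TNFR12_KO, 4328 to 6498 FPKM in WT and 23100 to 27310 FPKM in Sham. The summed level of the hepatocyte markers was lowest in WT, as was that of the P450 genes, and the part of hepatocyte number in the P450 results was not tested.

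Markers of other liver cell types moved less uniformly. Their counts in WT against Sham stand beside 41.9% of all tested genes lower and 16.4% higher. Of the 5 tested Kupffer cell markers, 4 fell in WT against Sham, 2 fell in RIPK1_D138N against WT and 3 in TNFR12_KO against WT, with summed levels of 14.4 to 17.3 FPKM in RIPK1_D138N, 6.02 to 10.6 FPKM in TNFR12_KO, 18.8 to 26.2 FPKM in WT and 55.6 to 85.6 FPKM in Sham. Of 4 tested cholangiocyte markers, 3 rose in WT against Sham, and their sums were 50.7 to 66.1 FPKM in RIPK1_D138N, 35.1 to 59.2 FPKM in TNFR12_KO, 65.9 to 201 FPKM in WT and 23.5 to 28.7 FPKM in Sham. Of 6 stellate cell markers 3 rose and 0 fell in WT against Sham, and of 6 sinusoidal endothelium markers 2 rose and 2 fell. Of 4 tested neutrophil markers 0 passed limma's test in WT against Sham or in either mutant against WT, with 0 also at an unadjusted p under 0.05, with sums that spread from 4.56 to 258 FPKM within WT alone. The part of these cell types in the P450 results was not tested.

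Finally, the promoters of the members were searched for 4 short motifs in the same 300 bases, over 38 promoters of 36 tested members and, for comparison, 32851 promoters in the RefSeq table. TATAAA, the TATA box, read on the sense strand, was present in 44.7% of the members' promoters and 8.32% of all. AGGTCA, the core element of nuclear receptor sites, read on both strands, was present in 39.5% and 16.3%. GCGTG, the core of the AHR site, read on both strands, was present in 13.2% and 32.4%, the genes being Cyp1a1, Cyp2b10, Cyp2c68, Cyp2j9 and Cyp2r1. TTCNNNGAA, the site of STAT factors, which reads alike on both strands, was present in 0 of 38 and in 8.3% of all. None of the 4 motifs contains another, many members share near-identical promoters, and a match describes the letters of this window and no binding.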

How the data were processed

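RNA-seq was made from total liver RNA of 12 mouse libraries, 3 per group. The authors deposited FPKM values in 1 table of 53796 rows, per the file headers. The submitters' processing notes name STAR 2.5.4a, Cufflinks 2.2.1, Cuffdiff and mm10. How strand was treated was not given in the sources used here. RIPK1_D138N and TNFR12_KO columns carry the replicate number of their labels; WT and Sham columns could be tied to a group alone, and their libraries are called a, b and c. For 131 repeats of a symbol the row with the highest mean was kept, which left 53665 genes. FPKM carries no read count, so the depth is unknown and no counting interval is given.

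A gene was tested (11718 genes) if 3 or more libraries had 1 FPKM or more. The test was that of limma 3.58.1 (R 4.3.3), fitted with a mean-variance trend to log2(FPKM + 1) with 4 group means over 12 libraries. P-values were adjusted by Benjamini-Hochberg over all tested genes. Shares over all genes were taken at adjusted p under 0.05 alone, so counts at an unadjusted p have no background beside them. On this scale changes of low genes are understated. Where RIPK1_D138N replicate 0 or replicates 1 and 2 stand alone, the others were left out of the fit, and a single library is assumed to vary like the other groups. The procedure was tested on simulated data with 200 changed genes of 11718 and otherwise 1 mean per gene for all groups. It recovered 52 to 69% of changes of 1 log2 unit and 94 to 99% of changes of 2 log2 units, with 5.1 to 8.4% of calls false. Far more genes were called in most comparisons of these data, so these rates need not hold here. Fold changes are named for the most abundant gene of each subfamily, the 6 largest rises and falls (mean of 5 FPKM or more in the higher group) and listed genes. Cyp2a12, Cyp2d10, Cyp2d22, Cyp2d26, Cyp2j6, Cyp2j9, Cyp3a25, Cyp3a59 and the placing of Cyp2d12 beside the sex-biased lists were chosen after their values were seen. The members and lists were chosen with earlier results of these data known. A gene of the hepatocyte factor list is not reported here and was left out of that list's counts. The alternatives tried were a pseudocount of 0.1, no filter, median-of-ratios scaling, quantile normalization, single libraries left out, a replicate block and the 24 genes listed at 0 in a group left out, of which 0 are members. The fit of 9 libraries and the common sum were added after seeing the data. Coordinates and transcripts are those of GENCODE M21, and shared 50-base stretches were counted against transcripts of all its genes. Promoters are from RefSeq on GRCm38.p6.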

Additional observations from a re-analysis of the deposited data

How the results depend on the processing

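The falls in WT against Sham (28 to 30 with 1 library left out) and the rises against WT in RIPK1_D138N (35 to 37) and TNFR12_KO (27 to 29) kept their direction with every library left out; the number of WT falls was 19 with a common sum. Without the filter on low values, 2 members rose in WT against Sham, 1 fell in RIPK1_D138N against WT and 2 fell in TNFR12_KO against WT. The fall of 1 member in RIPK1_D138N against WT was also seen under quantile normalization and with a common sum, against 2 with replicates 1 and 2 alone (range 0 to 2 with 1 library left out). RIPK1_D138N against TNFR12_KO gave 0 to 13 higher and 0 to 3 lower members with 1 library left out, 1 higher with a pseudocount of 0.1, quantile normalization or a common sum, 0 and 0 without the filter or with replicate 0 alone, and 13 and 3 with replicates 1 and 2 alone. Replicate numbers did not pair these samples, with correlations of -0.098, -0.202 and 0.057 between same-numbered libraries, and a fit of the 6 libraries gave 0 higher and 0 lower members with and without the replicate block. RIPK1_D138N against Sham gave 6 rises without the filter, 6 to 15 with 1 library left out, and 1 rise and 2 falls with replicate 0 alone. TNFR12_KO against Sham gave 5 rises in the fit of 9 libraries, where 915 of 11718 tested genes rose. With a common sum it gave 6 rises, where 2230 of 12105 tested genes rose. Its falls numbered 4 without the filter, 3 in each other scaling and 4 to 6 with 1 library left out.

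The values below are those whose direction turned and that passed the test as deposited or under the alternative. With quantile normalization they were Cyp2d26 (0.27) and Cyp2d10 (0.01) in WT against Sham, Cyp2c70 (-0.10) and Cyp2d10 (-0.28) in RIPK1_D138N against WT, Cyp2d26 (-0.17) in TNFR12_KO against WT, and Cyp2e1 (0.11) and Cyp3a11 (0.06) in TNFR12_KO against Sham. With a common sum they were Cyp2d26 (0.37), Cyp2c23 (0.19), Cyp2r1 (0.34) and Cyp2d10 (0.12) in WT against Sham, Cyp2d10 (-0.22) in RIPK1_D138N against WT and Cyp2d26 (-0.13) in TNFR12_KO against WT. With replicate 0 alone they were Cyp2d9 (1.13) and Cyp2d12 (1.65) against WT and Cyp2a22 (-0.19) and Cyp2c69 (-0.06) against Sham. A pseudocount of 0.1 left 245 member values on their side of the threshold, weakened 4 and strengthened 3. Depth is unknown from FPKM, so the precision of low members such as Cyp1a1 and Cyp2g1 cannot be given beyond the spread of 3 libraries. The cause of these shifts was not tested.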
